A study of Homo sapiens with 6 samples.

Results

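The 6 genes described here encode the enzymes that add and remove a phosphate on eIF2α: the kinases EIF2AK1 (HRI), EIF2AK2 (PKR), EIF2AK3 (PERK) and EIF2AK4 (GCN2), and the phosphatase regulatory subunits PPP1R15A (GADD34) and PPP1R15B (CReP). They were taken by name: every probe set whose only gene symbol in the platform annotation was one of the 6 was included, which gave 12 of the 54675 probe sets on the array. IMR32, an established human neuroblastoma cell line, received 0.1% DMSO as vehicle control or 118 µM teriflunomide, an inhibitor of the pyrimidine synthesis enzyme dihydroorotate dehydrogenase (DHODH). Treatment lasted 24 h and began 12 h after seeding, and each group comprised 3 arrays labelled as biological replicates. The labels do not say if these were separate cultures, so the p-values reflect only the spread among these arrays, which may be technical. The DMSO content of the teriflunomide treatment is not given, so a difference in vehicle cannot be told apart from the drug.

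Translation starts with the factor eIF2, which carries the initiator tRNA to the ribosome and must be recharged with GTP by eIF2B. Phosphorylated eIF2α blocks eIF2B, so most protein synthesis falls while a few mRNAs with upstream open reading frames, among them ATF4, are translated better; this is the integrated stress response. Each kinase senses a different stress: HRI low haem and mitochondrial damage, PKR double-stranded RNA, PERK unfolded protein in the endoplasmic reticulum (ER), and GCN2 uncharged tRNA and stalled ribosomes. PPP1R15A, itself induced by ATF4 and CHOP, and the constitutive PPP1R15B bring protein phosphatase 1 to eIF2α and end the response. The kinases are controlled mainly after translation, and these arrays measured mRNA only, not kinase activity or eIF2α phosphorylation.

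Values are log2 intensities on which 1 unit is a doubling. They were made with GCRMA, which sets dim probe sets to a floor. The lowest value on every array was 2.18, and array medians were 2.63 to 2.66. Some probe sets repeated a higher value across arrays, so a floor may also lie above 2.18. The neuroblastoma marker HAND2, for example, read 6.92 on DMSO replicates 1 and 3 and on every teriflunomide array. Because probes differ in brightness, levels are compared between groups for 1 probe set and never between probe sets. Probe sets at or above the array median on at least 3 arrays were tested, which 11 of the 12 passed, and the brightest of a gene stood for it among the 11998 genes tested. Correlations between arrays over all probe sets (Pearson's r, across probe sets) were at least 0.998 within groups and 0.989 to 0.990 between them. Of 10 sympathoadrenal neuroblastoma markers 8 were tested; MYCN (15.11 in DMSO), GATA3 (13.23), PHOX2A (11.93) and CHGA (12.73) were bright, TH lay near the floor on its probe set (2.18), and DBH was dim (3.41). With teriflunomide, CHGA changed by -1.46 and MYCN by -0.43, while PHOX2A rose by 0.76 and GATA3 by 0.35. The 3 blood, 3 endothelial and 3 epithelial markers lay at or near the floor, with means up to 2.73 (EPCAM), as did the fibroblast marker DCN (2.18). The fibroblast markers COL1A1 and LUM were bright and rose by 0.94 and 0.61, and their part in the results was not tested. The ACTB 3' minus 5' control signal, which grows as RNA or target shortens, was 1.36 ± 0.03 in DMSO and 1.62 ± 0.07 with teriflunomide (log2, SD, n = 3 per group, two-sided exact permutation p = 0.1, the smallest that 3 against 3 allows). The same measure for GAPDH was 0.049 and 0.063 (exact permutation p = 0.4). The ACTB measure moved alongside every difference between the groups given below, and its part in them was not tested.

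The comparison asked how the mRNAs of these regulators differed between teriflunomide and DMSO. PPP1R15A rose 6.66-fold, from a level near the floor, and PPP1R15B 1.34-fold, whereas EIF2AK3 fell by 0.41 on the log2 scale and EIF2AK4 rose 1.13-fold, a call that most alternative settings lost. EIF2AK2 and the brighter probe set of EIF2AK1 did not pass the test. In all, 3 of the 6 genes were called higher, where 29.7% of all genes tested were, and 1 was called lower, where 28.9% were (limma, adjusted p under 0.05). By probe set, 4 of the 11 tested were higher and 2 lower, against 23.7% and 25.2% of all probe sets tested. With so many genes called throughout, these counts say little about the 6 genes. The arrays read bulk RNA, so less RNA per cell and fewer cells with a transcript cannot be told apart.

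**Figure D1:**
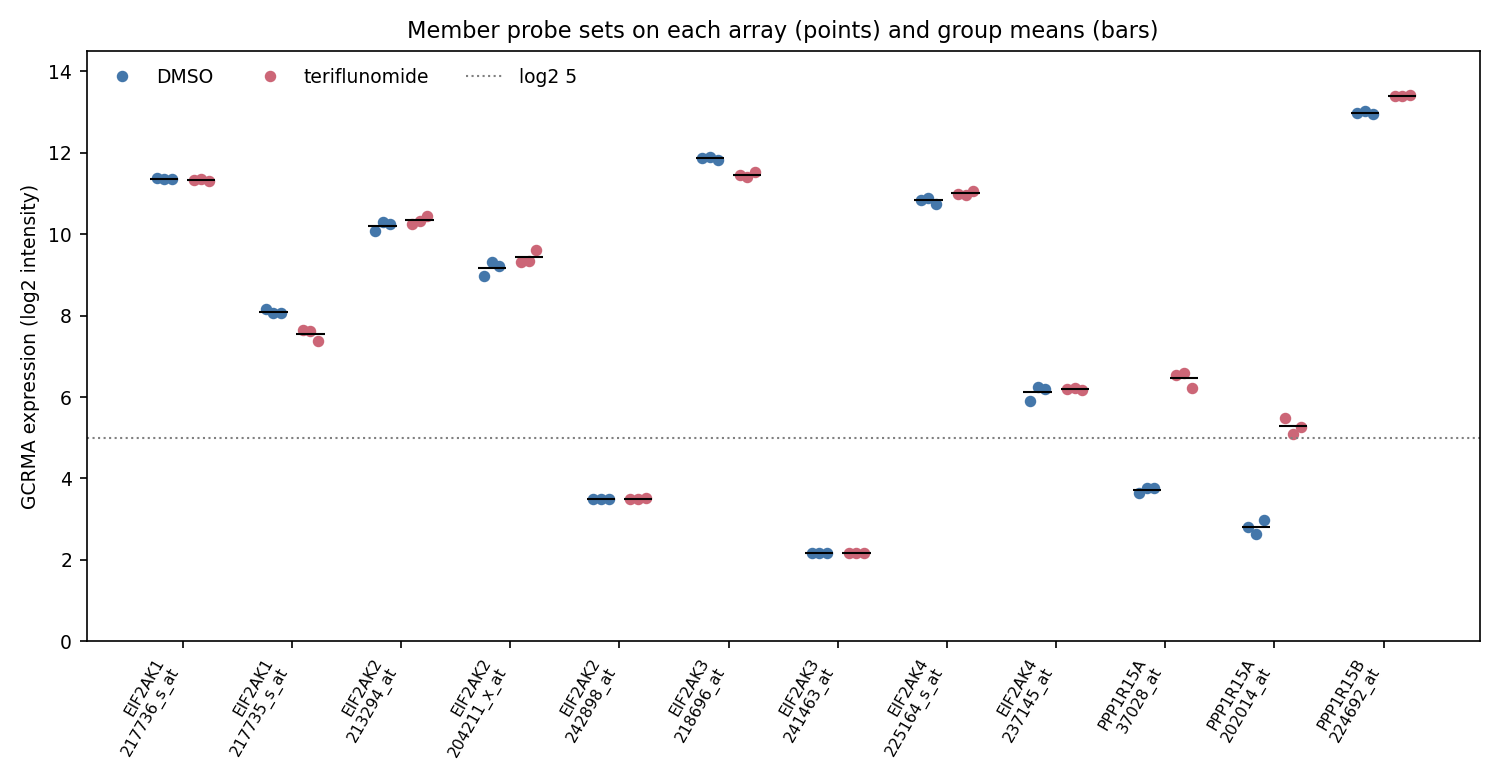
log2 GCRMA intensity of the 12 probe sets (x axis) on each DMSO (blue) and teriflunomide (red) array, with group means as bars and log2 5 as a dotted line. Both PPP1R15A probe sets crossed from below to above log2 5, while the EIF2AK3 probe set 241463_at and the EIF2AK2 probe set 242898_at stayed at 2.18 and 3.50 in both groups; heights of different probe sets are not comparable.

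EIF2AK3 encodes PERK, the transmembrane kinase of the ER that dimerises when chaperones leave its lumenal domain. Its probe set 218696_at read 11.88, 11.89 and 11.81 in the DMSO replicates and 11.44, 11.40 and 11.52 with teriflunomide. Every teriflunomide array lay below every DMSO array. The means were 11.86 ± 0.04 and 11.45 ± 0.06 (SD, n = 3 per group), a log2 fold change of -0.41 (SE 0.05, limma adjusted p = 0.000846 over all genes). Leaving out any 1 array gave -0.44 to -0.38, with the call kept each time. In size the change exceeded that of 62.3% of genes tested. The second EIF2AK3 probe set, 241463_at, lay at the floor on all 6 arrays and so showed nothing in either group.

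EIF2AK4 encodes GCN2, the kinase of amino acid shortage, which binds uncharged tRNA and the ribosomal P-stalk. Its bright probe set 225164_s_at read 10.85, 10.89 and 10.74 in DMSO and 10.99, 10.96 and 11.06 with teriflunomide. The groups did not overlap, but the gap between the highest DMSO and the lowest teriflunomide array was smaller than the SD within DMSO (0.08). This was a rise of 0.18 on the log2 scale (SE 0.05, limma adjusted p = 0.0339 over all genes). Of 16 alternative settings 9 lost the call, among them leaving out DMSO replicate 1, DMSO replicate 3 or any teriflunomide replicate (log2 fold changes 0.13 to 0.21 over the 6 arrays left out in turn, adjusted p 0.0306 to 0.0932). The dimmer probe set 237145_at read 5.90, 6.25 and 6.19 in DMSO and 6.19, 6.22 and 6.18 with teriflunomide, a log2 difference of 0.08 that did not pass (limma adjusted p = 0.506 over probe sets). Its lowest array was DMSO replicate 1, and the other 5 arrays were close together.

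EIF2AK2 encodes PKR, an interferon-induced kinase that binds double-stranded RNA. Its brightest probe set, 213294_at, read 10.07, 10.31 and 10.24 in DMSO and 10.25, 10.32 and 10.46 with teriflunomide. The groups overlapped, with DMSO replicate 1 lowest and teriflunomide replicate 3 highest. The log2 difference was 0.14 (95% confidence interval -0.07 to 0.35, limma adjusted p = 0.214 over genes), and without DMSO replicate 1 it was 0.07. Probe set 204211_x_at, whose suffix marks probes that can match other transcripts, read 8.98, 9.31 and 9.22 in DMSO and 9.32, 9.34 and 9.62 with teriflunomide. Here the groups did not overlap, though narrowly, and the difference of 0.26 did not pass (interval -0.05 to 0.57, limma adjusted p = 0.139 over probe sets). Probe set 242898_at stood at 3.50 in both groups, near the floor.

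EIF2AK1 encodes HRI, the haem-regulated kinase that also relays mitochondrial stress through OMA1 and DELE1. Its probe sets disagreed. The brighter, 217736_s_at, read 11.37, 11.34 and 11.34 in DMSO and 11.32, 11.35 and 11.29 with teriflunomide. These groups overlapped, and the difference of -0.03 had a 95% confidence interval of -0.11 to 0.05 (limma adjusted p = 0.437 over genes). The other, 217735_s_at, read 8.16, 8.06 and 8.05 in DMSO and 7.65, 7.61 and 7.37 with teriflunomide. All 3 teriflunomide arrays were lower, by 0.55 on average (SE 0.09, limma adjusted p = 0.00436 over probe sets). The changes of these probe sets differed from each other by 0.52 (SE 0.09, limma adjusted p = 0.00484 over all pairs of probe sets of a gene), a call kept under each of 14 alternative settings. Such a difference between probe sets was called for 30.6% of the 10737 pairs tested across all genes, so it is common on these arrays. A call for EIF2AK1 therefore depends on the probe set: as the mean of its probe sets the gene was called lower, at -0.29.

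PPP1R15A encodes GADD34, the inducible regulatory subunit that returns eIF2α to its unphosphorylated state. Its probe set 37028_at read 3.64, 3.76 and 3.78 in the DMSO replicates and 6.55, 6.60 and 6.22 with teriflunomide. The lowest teriflunomide array stood well over 2 log2 units above the highest DMSO array. The means were 3.72 ± 0.08 and 6.46 ± 0.20 (SD, n = 3 per group), a log2 fold change of 2.74 (SE 0.11, limma adjusted p = 4.31e-05 over all genes). Among 11998 genes this was the rise of rank 54. The second probe set, 202014_at, read 2.81, 2.63 and 2.98 in DMSO and 5.48, 5.09 and 5.27 with teriflunomide, a log2 fold change of 2.47 (SE 0.13, limma adjusted p = 0.000153 over probe sets). The changes of the 2 probe sets differed by 0.27, which did not pass (limma adjusted p = 0.289 over pairs). All DMSO values were under log2 5, near the floor, so the size of the rise is uncertain: with values under log2 5 raised to 5 it was 1.46 on 37028_at and, no longer past the threshold, 0.28 on 202014_at.

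PPP1R15B encodes CReP, the subunit that supplies eIF2α phosphatase activity in unstressed cells. Its only probe set, 224692_at, was bright, at 12.96, 13.01 and 12.94 in DMSO and 13.38, 13.38 and 13.41 with teriflunomide. The teriflunomide arrays were tightly grouped and all above the DMSO arrays. The means were 12.97 ± 0.04 and 13.39 ± 0.01 (SD, n = 3 per group), a log2 fold change of 0.42 (SE 0.03, limma adjusted p = 0.000253 over genes). The range was 0.40 to 0.44 when any 1 array was left out.

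**Figure D2:**
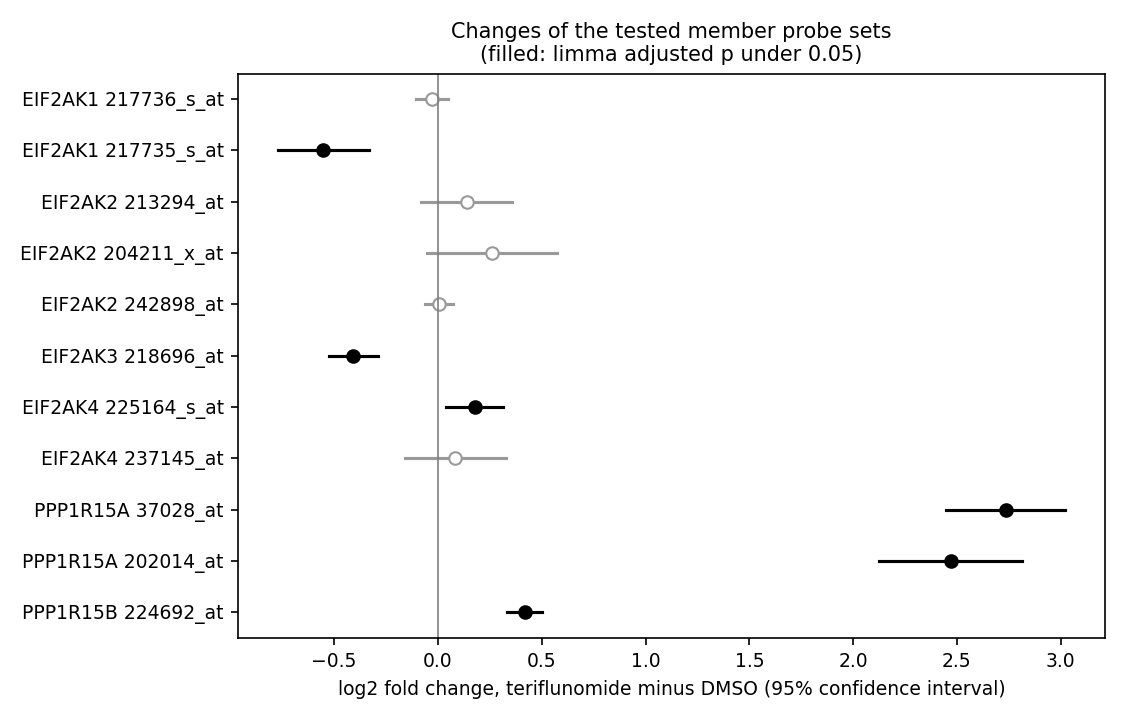
log2 fold change (x axis, teriflunomide minus DMSO) with its 95% confidence interval for the 11 tested probe sets; filled black points passed limma at an adjusted p under 0.05 and open grey points did not. Both PPP1R15A probe sets lie near 2.5 or above, PPP1R15B at 0.42, EIF2AK3 at -0.41, and the EIF2AK1 probe sets at -0.03 and -0.55.

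The phosphatase subunit genes rose under each alternative setting that tested them, so the 250 bases upstream of their start sites are shown, from RefSeq on GRCh38.p14; 5 of the 6 genes were matched in the promoter table used here. PPP1R15A lies on the plus strand (chr19:48872171-48872420) and PPP1R15B on the minus strand (chr1:204411818-204412067). Capitals mark matches, on either strand, to 4 motifs: the composite element bound by ATF4 with C/EBP partners (TGATGNAA), the cyclic AMP response element (TGACGTCA), an interferon response core (GAAANNGAA) and the CCAAT box (CCAAT).
PPP1R15A: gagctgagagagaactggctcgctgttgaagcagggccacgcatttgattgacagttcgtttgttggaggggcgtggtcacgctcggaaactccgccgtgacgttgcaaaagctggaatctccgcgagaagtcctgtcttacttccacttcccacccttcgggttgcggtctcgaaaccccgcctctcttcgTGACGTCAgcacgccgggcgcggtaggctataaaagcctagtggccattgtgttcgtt
PPP1R15B: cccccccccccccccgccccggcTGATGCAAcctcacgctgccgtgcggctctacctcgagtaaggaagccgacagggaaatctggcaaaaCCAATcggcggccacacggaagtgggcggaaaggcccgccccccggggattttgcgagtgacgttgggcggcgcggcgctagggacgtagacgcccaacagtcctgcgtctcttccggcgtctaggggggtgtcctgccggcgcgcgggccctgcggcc

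In PPP1R15A the match was a cyclic AMP response element 58 to 51 bases before the start, which 1.65% of 35116 promoters held in the same window. In PPP1R15B it was an ATF4 composite element 227 to 220 bases before the start, found in 3.14% of promoters, and a CCAAT box, found in 32% of them. EIF2AK3 had 4 CCAAT matches and EIF2AK2 had 2, and the EIF2AK4 window matched none of the 4 motifs. The interferon core, held by 6.88% of promoters, was complete in none of these 5 windows. The EIF2AK2 window, however, ends in gaaaac, which fits the beginning of this core. Bases past the start site were not searched, so a core that crosses the start of EIF2AK2 would have been missed. A match is a run of letters and does not show that a factor binds there, and binding was not measured.

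The changes of the 6 genes were also set against each other. EIF2AK3 changed by -0.83 relative to PPP1R15B, both of them bright. EIF2AK3 changed by -0.58 relative to EIF2AK4, and this difference varied by only 0.03 (SD) among DMSO and 0.01 among teriflunomide arrays (n = 3 per group). For each of the 15 pairs of genes the difference was taken array by array; in 13 pairs the groups did not overlap, each with a two-sided exact permutation p of 0.1, the smallest possible, and an adjusted p of 0.115 over the 15 pairs. The share of such pairs among all genes was not computed, so this count says little about the 6 genes. The pairs share genes and are not independent. The size of each difference that involves PPP1R15A rests on its DMSO values near the floor. The exceptions were EIF2AK2 against EIF2AK1 and against EIF2AK4. For the genes on their own, the arrays did not overlap in 4 of the 6, against 67% of all genes tested.

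**Figure D3:**
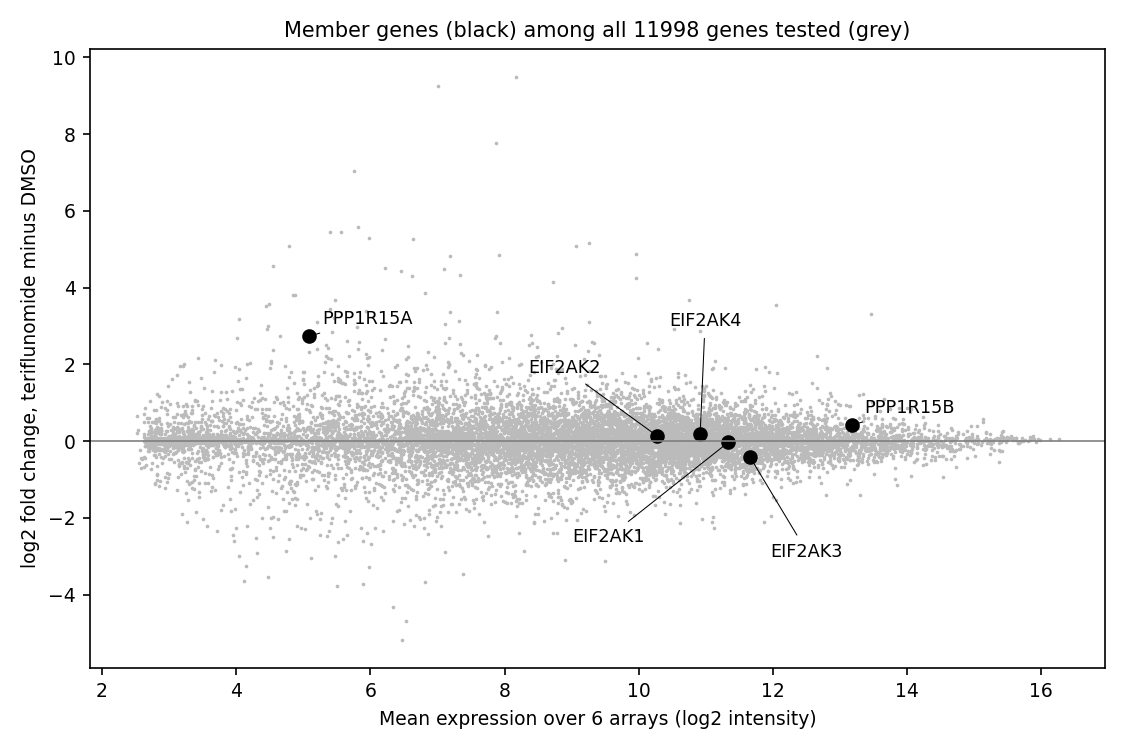
log2 fold change (y axis) against mean log2 intensity over the 6 arrays (x axis) for 11998 genes (grey) and the 6 genes (black, named). PPP1R15A stands at 2.74 among dim genes, while the 4 kinases lie between -0.41 and 0.18 within the main body of points.

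The kinases' substrate and its exchange factor were measured alongside. Of the 8 eIF2 and eIF2B subunit genes, 3 rose, 2 fell and 3 missed the threshold. Their median log2 fold change was -0.04 where that of all genes was 0.0015. The shares to set beside this count, and beside that of each list below, are 29.7% of all genes called higher and 28.9% lower. EIF2S1, which encodes eIF2α itself, fell from 12.24 ± 0.04 to 11.88 ± 0.04 (SD, n = 3 per group), a change of -0.35 (SE 0.04, limma adjusted p = 0.000697). Its other probe sets changed by -0.33 and -0.23. EIF2S2, the β subunit, rose by 0.86 (SE 0.03), so the subunits of this trimer moved in opposite directions. EIF2B2, a regulatory subunit of the exchange factor, rose by 0.46 (SE 0.05).

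Of 17 genes for regulators and partners of the kinases, 15 were tested; 3 rose, 5 fell and 7 missed the threshold (median -0.02). PRKRA, which encodes the PKR activator PACT, rose by 0.64 (SE 0.05) on its bright probe set, while a dim one stood at 0.17 and did not pass. TARBP2, an RNA-binding inhibitor of PKR, changed by -0.50 (SE 0.05). Of 5 phosphatase partners, 4 were tested, 3 fell and 1 missed the threshold (median -0.16). The largest was PPP1CA, a catalytic subunit of protein phosphatase 1, at -0.30 (SE 0.08, limma adjusted p = 0.0233), followed among the named genes by ACTB at -0.15. These 3 calls were all lost without DMSO replicate 1, DMSO replicate 3 or teriflunomide replicate 2, and 1 was left without teriflunomide replicate 3, under quantile normalization or with the replicate block. ACTB lost its call under the last 2 of these settings (limma adjusted p = 0.0703 and 0.0597), and PPP1CA lost its call with no filter (limma adjusted p = 0.067).

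Downstream genes moved much further than the kinases. Of 12 ATF4 branch genes 11 were tested and 11 rose, all at least 2-fold, with a median of 3.54. Among all 11998 genes tested, 629 were called higher by at least 2-fold. ATF4, the transcription factor at the head of the branch, rose from 13.10 ± 0.06 to 14.20 ± 0.05 (SD, n = 3 per group), and DDIT3, which encodes CHOP, from 7.51 ± 0.19 to 12.40 ± 0.08. CHAC1, a glutathione-degrading enzyme, and TRIB3, a pseudokinase that restrains ATF4, rose by 5.30 and 5.16. CHAC1 was near the floor in DMSO (3.33 ± 0.62, SD, n = 3), and with values under log2 5 raised to 5 its rise was 3.63, smaller than that of TRIB3 or DDIT3 (4.89). The list holds known ATF4 targets whose rise in these arrays was known when it was chosen, so its count is not independent evidence. Of 4 other mRNAs with upstream open reading frames, 2 rose, 1 fell and 1 missed the threshold (median 0.40): IFRD1, a transcriptional co-regulator, rose by 1.08 and SLC35A4, a solute carrier family member, changed by -0.80.

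**Figure D4:**
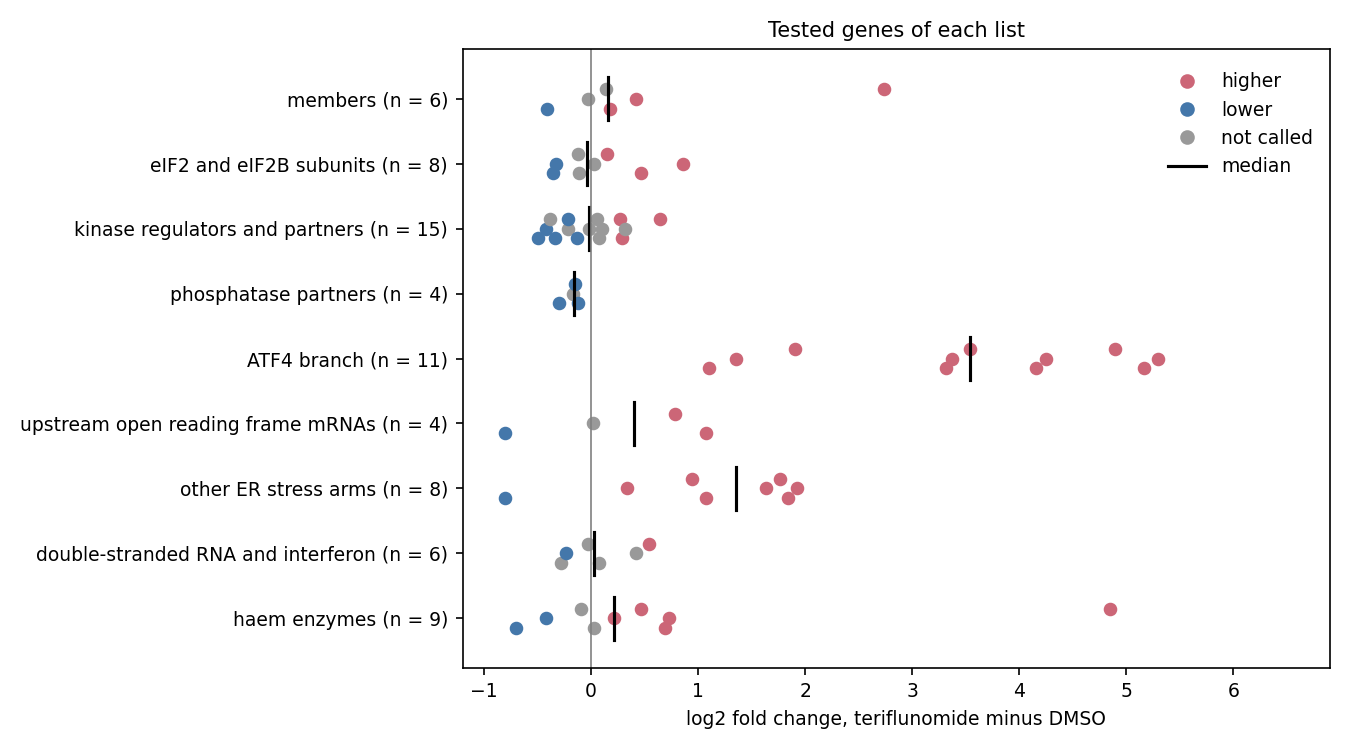
log2 fold change (x axis) of each tested gene in the 6 genes and the 8 lists (rows, with the number tested); red points were called higher, blue lower and grey not called by limma, and bars are medians. The ATF4 branch has its median at 3.54 and the other ER stress arms at 1.35, while the eIF2 and eIF2B subunits and the kinase partners centre near 0.

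The signals that each kinase is known to sense have their own genes. In the ER, where PERK acts, 8 of 8 genes of the other stress arms were tested, of which 7 rose and 1 fell, with a median of 1.35. Of all genes tested, 29.7% were called higher and 28.9% lower. The rises on this list spanned 0.33 to 1.92, and the list too was chosen with earlier results of these data known. HERPUD1, of ER-associated degradation, rose by 1.92 and ERN1, which encodes the sensor IRE1α, by 1.84, while SDF2L1, an ER chaperone cofactor, changed by -0.81. EIF2AK3 thus fell while ERN1 and 6 other genes of this list rose; the difference between them was not tested. Of 14 genes for double-stranded RNA and interferon responses, where PKR belongs, 6 were tested, 1 rose, 1 fell and 4 missed the threshold (median 0.02). ISG15, a ubiquitin-like protein, rose by 0.54 and RIGI, an RNA sensor, changed by -0.24. The RIGI value comes from the only tested one of its 3 probe sets, 242961_x_at. That probe set was dim (5.74 in DMSO), and its suffix marks probes that can match other transcripts. The ISG15 call was lost without DMSO replicate 3 or any teriflunomide replicate, and the RIGI call when any array other than DMSO replicate 2 was left out. Of the genes of that list below the filter, IFIH1, TLR3 and MX1 lay at the floor on every probe set they have, with a mean of 2.18 for the brightest.

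Of 10 haem enzymes, the context of HRI, 9 were tested, 5 rose, 2 fell and 2 missed the threshold (median 0.21). Among all genes tested, 29.7% were called higher and 28.9% lower. HMOX1, which degrades haem, rose from 5.49 ± 0.08 to 10.34 ± 0.15 (SD, n = 3 per group), a change of 4.85 (SE 0.09). ALAS1, the first enzyme of haem synthesis, rose by 0.73, and UROS, a later one, changed by -0.70. With the brightest plain-suffix probe set preferred, UROS stood at -0.36 and did not pass. Its dimmer plain-suffix probe set, 232560_at, changed by -0.93 and passed (limma adjusted p = 0.00667 over probe sets).

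The genes whose profile over the 6 arrays came closest to that of PPP1R15A, by the root mean square difference of log2 values after each gene's mean was removed, were OPTN (0.054), RGMB (0.103) and SLC3A2 (0.122), of 11997 compared. They rose by 2.75, 2.68 and 2.57, and their Pearson's r with PPP1R15A over 6 arrays was 0.997 to 0.999. OPTN encodes an autophagy receptor, RGMB a co-receptor for bone morphogenetic proteins and SLC3A2 the heavy chain of several amino acid transporters. For EIF2AK3 the closest were SCAF11, ZBTB8A and TMEM181, each at 0.028 or 0.029, which changed by -0.45, -0.41 and -0.46. With 2 groups of 3 arrays, closeness mostly reflects an equal change between the groups.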

How the data were processed

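RNA from 6 IMR32 samples was hybridised to Affymetrix arrays. The authors deposited 1 log2 intensity for each probe set of each array; the submitters' processing notes name GCRMA, and its version and settings, like the genome build, are not stated in the sources used here. GCRMA models background from probe sequence and equalises the distributions of the arrays, which hides any change common to all genes.

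The platform annotation gave 41097 probe sets a single symbol, of which 41043 matched a RefSeq gene identifier (GRCh38.p14, for names). The unmatched ones kept their platform symbol. Probe sets with several symbols or none stood for no gene. Teriflunomide was compared with DMSO by limma 3.58.1 in R 4.3.3 (lmFit, eBayes, no covariates, two-sided), with Benjamini-Hochberg adjustment over 11998 genes, 27290 probe sets or 10737 pairs of probe sets of a gene and a threshold of 0.05. A pair's value was the brightest probe set of a gene minus another, array by array. Arrays give no read depth; with 3 per group, their number limits precision. Promoters were searched and figures drawn in Python 3.11.15.

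Members and lists were chosen with earlier results of these data known. Genes were named by rule: the members, ATF4 and DDIT3; from each list the 2 called genes with the largest change and the largest opposite one; and the 3 genes closest in profile to the member that rose most and to the one that fell most. Cell type markers, IFIH1, TLR3 and MX1 fall outside the rule, and the last 3 were chosen after their values were seen. Alternatives were: array weights; centring; quantile normalization; values under log2 5 raised to 5; eBayes with trend and robust; a replicate block; each array left out; no filter or one at the 75th percentile; and, for genes, the mean of the probe sets or preference for a plain suffix.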

Additional observations from a re-analysis of the deposited data

How the results depend on the processing

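Over 16 alternatives for genes and 14 for probe sets, none of the called changes of the 6 genes or of the 21 genes named from lists changed direction. Of 95 values for the 6 genes, 9 lost the call, all of EIF2AK4, and 1 gained it, EIF2AK1 as the mean of its probe sets, which took the number of the 6 called lower from 1 to 2. EIF2AK3 and PPP1R15B kept their calls under each alternative, and PPP1R15A under each that tested it: it lies below the filter at the 75th percentile, which left 2 of the 6 called higher. Preferring a plain suffix took EIF2AK4 to 0.08, on its dimmer probe set. With values under log2 5 raised to 5, the PPP1R15A probe sets changed by amounts that differed by 1.18, since 202014_at then had little range left. Of 334 values for genes named from lists, 25 lost the call, in 6 genes, among them PRKRA at 0.17 with a plain suffix preferred. The count of probe set pairs called different was 3285, and 5798 with no filter and 1534 with the filter at the 75th percentile, as more or fewer pairs were tested. The kinase partner list had 5 genes higher with trended and robust eBayes and 8 lower with the mean of probe sets. The phosphatase partner list had 1 lower, in place of 3, under quantile normalization and with the replicate block. Of the haem enzymes 3 were higher, in place of 5, with the mean of probe sets or a plain suffix preferred, and in the latter 1 was lower. The interferon list had 2 higher after centring, quantile normalization or trended and robust eBayes, 0 lower with the last, and 0 either way with no filter or the filter at the 75th percentile. Leaving out 1 array in turn left 2 or 3 of the 6 genes higher and 1 lower.

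No pairing of the arrays by replicate number was seen, though 3 arrays per group cannot exclude one. Deviations from the group means correlated at 0.04, 0.10 and -0.09 for equal numbers over 11998 genes. DMSO replicate 3 correlated best with teriflunomide replicate 1 (0.14). With the replicate block 6641 genes were called, against 7031 without it, and EIF2AK4 did not pass (limma adjusted p = 0.0995); the other 5 of the 6 genes kept their side of the threshold, and ACTB also lost its call. The alternatives for the ACTB control, chosen after seeing the data, gave differences of 0.23 to 0.30. Signal near the floor limits PPP1R15A, CHAC1, the dimmer TRIB3 probe set, 1 EIF2AK2 probe set and 1 EIF2AK3 probe set.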

Other observations

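Other genes of this pathway had probe sets that rose or fell together but by unequal amounts. For ERN1, the second sensor of ER stress beside PERK, the brighter probe set 227755_at rose by 1.84 and the dimmer 235745_at by 3.58, and the brighter minus the dimmer change was -1.75 (SE 0.20, limma adjusted p = 0.000934 over all pairs of probe sets). Probe sets of EIF2S2, the β subunit of eIF2, rose by 0.86 and 1.22, a difference of -0.36 (limma adjusted p = 0.0206). TRIB3 rose by 5.16 on one probe set and 3.24 on the other. The latter was dim and read the same value, 3.23, on every DMSO array, which may be a floor. The size of its rise, and so of the gap between these probe sets, is therefore uncertain. In these 3 genes each tested probe set passed, in the same direction. For EIF2AK1, 1 probe set fell and the other, also negative at -0.03, did not pass. Tested probe sets on both sides of the threshold were also seen for EIF2AK4, PRKRA, UROS and ACTB.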
